A study of Mus musculus with 6 samples.

Results

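The genes described here encode the proteasome, and they were taken as every gene whose symbol begins with Psm followed by a letter from a to g and a number, pseudogenes left out. Of 51 such symbols in the mouse reference, 48 had at least 1 region in the tables, out of 26742 genes in all. No region was listed for Psmb5, Psme2b and Psme3. A promoter region, meaning a region whose centre lay within 3 kb of a transcription start site (TSS), was present for 46 genes. Distances are those of the tables, to the nearest TSS of any transcript, which need not be the main start of the gene. Psma5 and Psmb7 had only regions farther away. The rule also took in Psmc3ip and Psme3ip1, which encode interaction partners and not proteasome subunits.

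The study measured chromatin association by CUT&Tag, in which an antibody brings a transposase to chromatin so that reads collect where the antibody's target sits. There were 6 libraries of primary mouse cardiac fibroblasts, the matrix-producing cells of the heart, with 1 library per group. The T set held cells labelled NC, cells treated with TGF-b and cells labelled TGF-b+SiTAZ. The S set held NC, TGF-b and TGF-b+SiSRF. TGF-b is a cytokine that activates fibroblasts, and NC is not spelled out in the labels. The study profiled TAZ, a coactivator that works through TEAD factors, and SRF, a factor that binds CArG boxes, so that T may stand for TAZ and S for SRF, but no label names the antibody. The last group of each set is called the siRNA library here, because its target is open to doubt: the labels name TAZ or SRF, the paper's legend for these libraries names Piezo2, and the design text of the series speaks of Tet3 knockout. The strain and age of the mice were not given in the labels. Because the assay measures chromatin association, it gives no check of the cell type. A promoter region was listed in at least 1 table for 5 of 6 fibroblast marker genes, Tcf21 being the exception, and for all 6 marker genes of cardiomyocytes, endothelial cells and leukocytes that were looked at. In the S set these counts were 2 of 6 (Col1a1 and Postn) and 3 of 6 (Tnnt2, Pecam1 and Ptprc).

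The proteasome is the protease that degrades ubiquitin-tagged proteins. Its core particle, the 20S, is a barrel of outer alpha rings (Psma genes) and inner beta rings (Psmb genes), and the beta subunits Psmb5, Psmb6 and Psmb7 carry the active sites. The 19S cap binds, unfolds and feeds in substrates through its ring of ATPases (Psmc genes) and its non-ATPase subunits (most Psmd genes), which include ubiquitin receptors and the deubiquitinase Psmd14. Dedicated chaperones assemble the core (Psmg genes) and the cap (Psmd5, Psmd9 and Psmd10). Alternative activators (Psme genes) can replace the cap, and the interferon-inducible subunits Psmb8, Psmb9 and Psmb10 form the immunoproteasome. In most cells the subunit genes are housekeeping genes with CpG-rich promoters, and they can be raised together when proteasome activity falls short.

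Each of the 4 deposited tables compared 2 libraries of 1 set over the merged called regions of both, and gave each region a normalized read density per library. Reads behind each density could be recovered, and they counted a window of 2 kb around the region. The median was only 5 to 10 reads per region in every library, so that intervals are wide. All intervals in brackets are 95% Wilson intervals of the read share put on the log2 scale. They cover counting error only, and differences between cultures could not be measured because no group had a replicate. A region was called higher or lower at a density ratio of at least 2-fold, the later library over the earlier one, and no test of a treatment was possible. The numbers of called regions differed between libraries. In the T set, 117769 regions were called only in NC and 43854 only in TGF-b in the first table, and 126997 only in the siRNA library against 45534 only in TGF-b in the second. The S set numbers were closer, with 26832 and 24737 in the first table and 26688 and 23841 (siRNA and TGF-b) in the second. The part of these differences in the results below was not tested.

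The promoter sequences of 8 genes are shown because these genes were among those with the largest differences between libraries, the densest regions or, for Psma6, a CArG box match. Each is the 250 bases before the RefSeq start of the GRCm38.p6 assembly, written 5′ to 3′ on the strand of the gene. Capitals mark matches, on either strand, to the letters of 7 motifs that were searched. They were CATTCC (TEAD factors), the CArG box of SRF, TGACNNNGC (the antioxidant response element bound by Nfe2l1 and Nfe2l2, of which Nfe2l1 is the known activator of proteasome genes), CCAAT (NF-Y), CCGGAAG (ETS factors), AAGATGGC (YY1) and TATAAA. The regions of the tables have GRCm39 coordinates, so that they were not laid over these sequences. In the T set, Psma2, Psmc6 and Psmb6 had the highest ratios of TGF-b over NC, and Psmd10 and Psmd9 were among the 4 largest falls in the siRNA library, by the rule for named members. Psmd8 was among the 4 densest of the T set by the mean over its tables and had the largest rise at a region called in both libraries in the siRNA comparison of the S set. Psmc4 had the largest rise with TGF-b in the S set among members named by the rule. Psma6 was the only member with a CArG box match. The match lay before its upstream start, and the 250 bases before its downstream start held none. No Psma6 region was listed in the S set.

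The sequences lie before the starts of Psma2 at chr13:14612992-14613241 (plus strand), Psmc6 at chr14:45329574-45329823 (plus strand), Psmb6 at chr11:70525107-70525356 (plus strand), Psmd10 at chrX:140956712-140956961 (minus strand), Psmd9 at chr5:123227940-123228189 (plus strand), Psmd8 at chr7:29180674-29180923 (minus strand), Psmc4 at chr7:28050093-28050342 (minus strand) and Psma6 at chr12:55383972-55384221 (plus strand), the last being the upstream of the RefSeq starts of Psma6.
Psma2: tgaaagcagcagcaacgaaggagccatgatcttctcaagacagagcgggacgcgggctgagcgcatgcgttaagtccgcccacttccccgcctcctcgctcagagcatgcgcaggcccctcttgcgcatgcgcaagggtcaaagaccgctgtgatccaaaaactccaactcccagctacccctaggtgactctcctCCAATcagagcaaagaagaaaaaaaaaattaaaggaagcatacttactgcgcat
Psmc6: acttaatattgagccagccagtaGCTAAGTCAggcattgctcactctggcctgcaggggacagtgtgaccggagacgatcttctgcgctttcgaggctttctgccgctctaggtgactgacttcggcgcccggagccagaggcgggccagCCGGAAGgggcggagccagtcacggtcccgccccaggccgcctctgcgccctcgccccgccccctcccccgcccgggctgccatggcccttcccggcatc
Psmb6: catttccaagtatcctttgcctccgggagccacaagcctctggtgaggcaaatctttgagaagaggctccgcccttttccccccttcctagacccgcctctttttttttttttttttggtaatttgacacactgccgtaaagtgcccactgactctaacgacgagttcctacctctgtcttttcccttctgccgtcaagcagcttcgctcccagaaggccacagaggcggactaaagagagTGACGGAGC
Psmd10: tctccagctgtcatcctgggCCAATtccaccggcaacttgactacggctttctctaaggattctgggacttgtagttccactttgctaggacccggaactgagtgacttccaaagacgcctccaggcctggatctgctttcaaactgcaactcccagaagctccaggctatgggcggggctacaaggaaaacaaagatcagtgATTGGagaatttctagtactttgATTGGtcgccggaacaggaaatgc
Psmd9: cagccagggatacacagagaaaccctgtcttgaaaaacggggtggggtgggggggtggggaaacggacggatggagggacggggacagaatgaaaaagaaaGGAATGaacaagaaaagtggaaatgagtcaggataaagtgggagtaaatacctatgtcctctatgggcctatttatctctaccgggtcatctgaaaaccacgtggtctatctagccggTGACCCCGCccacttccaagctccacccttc
Psmd8: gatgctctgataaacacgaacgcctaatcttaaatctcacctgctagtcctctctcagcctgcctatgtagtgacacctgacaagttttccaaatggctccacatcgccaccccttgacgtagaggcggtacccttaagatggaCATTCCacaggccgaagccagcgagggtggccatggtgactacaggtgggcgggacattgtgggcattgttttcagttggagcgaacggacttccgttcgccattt
Psmc4: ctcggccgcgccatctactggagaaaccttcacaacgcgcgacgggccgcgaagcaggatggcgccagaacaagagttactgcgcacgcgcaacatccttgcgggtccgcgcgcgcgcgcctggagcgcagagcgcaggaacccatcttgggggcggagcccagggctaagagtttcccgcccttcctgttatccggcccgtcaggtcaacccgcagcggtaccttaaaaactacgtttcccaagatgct
Psma6: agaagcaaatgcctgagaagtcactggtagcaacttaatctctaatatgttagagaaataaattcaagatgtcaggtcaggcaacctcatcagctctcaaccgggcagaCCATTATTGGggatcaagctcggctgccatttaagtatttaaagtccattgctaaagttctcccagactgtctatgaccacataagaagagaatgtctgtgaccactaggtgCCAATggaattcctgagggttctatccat

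The single CATTCC match before the Psmd8 start began 106 bases upstream, and that of Psmd9 lay 149 bases upstream on the opposite strand. Psmb6 carried TGACNNNGC 9 bases and Psmd9 31 bases before the start. In Psma6 the CArG box match lay 141 bases upstream and overlapped a CCAAT match on the opposite strand. The Psmc4 stretch held no match to any of the motifs. Promoter sequences were at hand for 43 members and for 17492 genes in all, and shares were counted over the window from 250 bases before to 50 after the start. CCGGAAG stood in 16 members (37.2%) against 12.9% of all genes. CpG content differed as well, with a median of 19 CpG in members and 13 in all genes. Among genes with at least 19 CpG, CCGGAAG stood in 10 of 22 members (45.5%) and in 21.5% of 6615 genes. CATTCC was found in 11.6% of members and 15.5% of all genes, TGACNNNGC in 14% and 14.8%, CCAAT in 37.2% and 42.3%, AAGATGGC in 6.98% and 3.57%, TATAAA in 9.3% and 14.8%, and the CArG box in 2.33% and 1.76%. With at least 19 CpG, the same order of members and all genes gave 4.55% and 10.9% for CATTCC, 18.2% and 17.1% for TGACNNNGC, 36.4% and 38.4% for CCAAT and 9.09% and 5.32% for AAGATGGC. TATAAA and the CArG box stood in 0 of these 22 members, against 5.12% and 1.13% of genes. None of these shares was tested. These matches describe letters in the window and do not show binding.

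The share of proteasome genes with a promoter region is given beside that of all reference genes, with no test of the difference. In the T set a promoter region was present for 36 of 51 members (70.6%) in the table of TGF-b and NC, against 53.9% of 21900 reference genes, and for 41 (80.4%, against 53.9%) in the table of the siRNA library and TGF-b. The numbers in the S set were 15 (29.4%, against 23.3%) and 19 (37.3%, against 28.9%). The regions lay close to the start. Their centre was within 250 bases of a TSS in 69.4% and 73.2% of members in the T set, against 44.2% and 43.1% of genes with a promoter region, and in 73.3% and 84.2% against 47.5% and 56.4% in the S set. Median reads at these regions were 15.5 in NC and 19.5 in TGF-b for members, against 14 and 13 for all genes, and 17 in TGF-b and 10 in the siRNA library in the second table, against 12 and 10. The S set medians of members were 9 and 15, then 15 and 14, and equalled those of all genes.

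**Figure D1:**
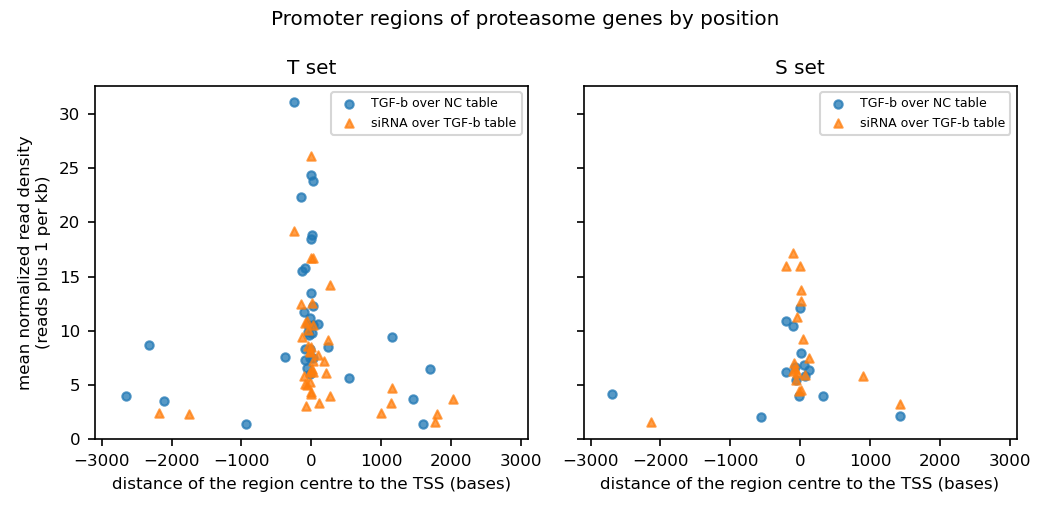
Position and density of the promoter regions. Each point is the densest promoter region of 1 proteasome gene in 1 table, with the distance of its centre to the TSS in bases (x) and the mean normalized read density of the 2 libraries in reads plus 1 per kb (y), for the T set (left) and the S set (right); circles are the TGF-b over NC tables and triangles the siRNA over TGF-b tables. Tables were normalized separately, so that heights compare points of 1 table only. Most points lie within 250 bases of the TSS, and the highest of the T set circles is Psmd3, with a mean density of 31.1.

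With TGF-b against NC in the T set, 6 of 36 members were at least 2-fold higher, 6 at least 2-fold lower and 24 in between. Over 16652 genes with a promoter region, 20.6% were higher and 25.1% lower, against 16.7% of members on either side. The median log2 ratio was -0.13 in members and -0.04 over all genes. Its sign depended on the distance allowed, since within 1 kb of the TSS it was 0.47 in 29 members and 0.15 over all genes, with 6 members higher and 3 lower against 22.7% and 19% of all genes. The counting interval lay above 0 for 8 members (22.2%) and below 0 for 3 (8.33%), against 22.7% and 21.7% of all genes. Whether a region had been called in 1 library or in both moved with the ratio. The median was -0.99 for the 13 members called only in NC, 1.06 for the 7 called only in TGF-b and -0.08 for the 16 called in both, against -0.85, 1.11 and 0.30 over all genes.

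**Figure D2:**
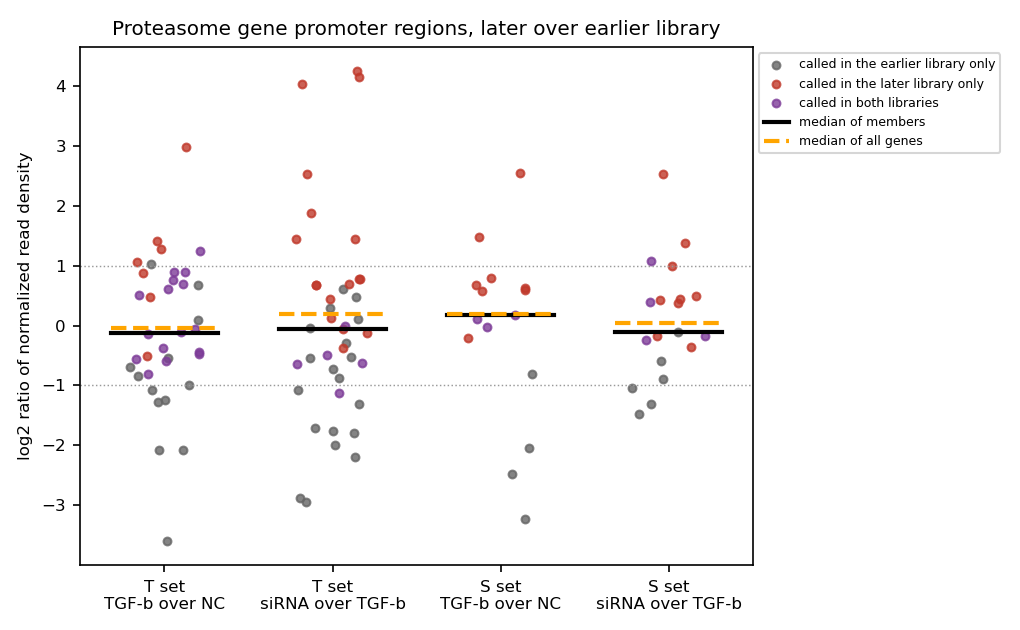
Log2 ratio of normalized read density at the densest promoter region of each proteasome gene (y) in the 4 comparisons (x), the later library over the earlier. Each point is 1 gene, coloured by the library in which the region was called; black lines are medians of members, orange dashed lines medians of all genes with a promoter region, and dotted lines mark 2-fold. Members spread on both sides of 0 in every comparison, with medians of -0.13, -0.06, 0.17 and -0.11.

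The alpha ring gene Psma2 had 3 reads in NC and 28 in TGF-b, at a region 241 bases inside the gene (chr13:14787995-14788138, GRCm39). This was the largest rise of a member, with a log2 ratio of 2.97 (1.70 to 4.96). The 19S ATPase gene Psmc6 had 10 and 27 reads, 44 bases before its start, and a log2 ratio of 1.41 (0.47 to 2.52). Psmb6, which encodes a catalytic beta subunit, had 7 and 17 reads and rose by a log2 ratio of 1.27 (0.15 to 2.61). The immunoproteasome subunits moved the same way in part. Psmb10 had 8 and 19 reads (1.24, 0.18 to 2.50) and Psmb9 20 and 41 (1.02, 0.29 to 1.82), while Psmb8 had 12 reads in both libraries (0.09, -1.03 to 1.22). Psmc5, another 19S ATPase, had 13 and 27 reads, with a log2 ratio of 1.06 (0.17 to 2.05).

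All 6 members lower with TGF-b were at regions called only in NC, as were 3921 of the 4176 lower genes over all. Psmg1, a core assembly chaperone, had 13 reads in NC and 0 in TGF-b at a region 2108 bases upstream. With the 0 set to the floor of 3 reads its density was 0.33 of that in NC, a bound and not an estimate. Psmd1, the large scaffold subunit of the cap, had 27 and 10 reads 30 bases before its start, with a log2 ratio of -1.28 (-2.39 to -0.34). Psma8, the alpha subunit of the testis, had 24 and 9 reads at an intronic region, with a log2 ratio of -1.25 (-2.42 to -0.26). An adjoining Psma8 region with the same reads was called only in TGF-b. Psmg2, the partner of Psmg1 in core assembly, had 15 and 6 reads and an interval that included 0 (-2.53 to 0.11). Psmc2 and Psmd6 completed the 6 lower members, each with only 4 reads in NC and 0 in TGF-b.

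By role, the standard beta ring genes with a promoter region numbered 4, with 1 higher and 0 lower and a median log2 ratio of 0.57. The 5 ATPase genes had 2 higher and 1 lower, with a median of 0.61. The 10 non-ATPase genes of the cap had 0 higher and 2 lower and a median of -0.57, ranging from -2.07 to 0.89. Over all genes 20.6% were higher and 25.1% lower in this comparison, with a median of -0.04, and no role was tested against them. Within this group, Psmd3 had 70 and 52 reads, Psmd4, a ubiquitin receptor, 44 and 29, and Psmd12 28 and 15, and the intervals of all 3 included 0. The only non-ATPase gene of the cap whose interval lay above 0 was Psmd8, with 25 and 47 reads (0.89, 0.22 to 1.61). The cap chaperone genes Psmd9, with 13 and 24 reads (0.90, -0.01 to 1.90), and Psmd10, with 11 and 20 (0.88, -0.10 to 1.98), had intervals that included 0. The activator gene Psme2 was the densest member in the TGF-b library, with 35 reads in NC and 61 in TGF-b (0.76, 0.18 to 1.37).

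In the siRNA library against TGF-b in the T set, 7 of 41 members were higher and 10 lower, 17.1% and 24.4%. Over 16732 genes, 31.5% were higher and 20.4% lower, and the median log2 ratio was 0.20 against -0.06 in members. Without the rescaling line of the authors the median was -0.26 over all genes and -0.51 in members, with 6 members higher and 15 lower against 23.6% and 29.6% of all genes, so that the direction over all genes depends on that line. This difference in shares was not tested. Within 1 kb of the TSS the median was -0.21 in 34 members and -0.03 over all genes. The counting interval lay above 0 for 5 members (12.2%) and below 0 for 10 (24.4%), against 27% and 20.3% of all genes. The class of the region again moved with the ratio, with medians of -0.87 for the 19 members called only in TGF-b, 0.77 for the 17 called only in the siRNA library and -0.63 for the 5 called in both. Over all genes those medians were -1.08, 1.19 and -0.19.

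All 3 genes of cap assembly chaperones were at least 2-fold lower, as were 20.4% of all genes, and this was not tested. Psmd10 had 20 reads in TGF-b and 1 in the siRNA library, 88 bases before its start on the X chromosome, with a log2 ratio of -2.94 (-6.42 to -1.32). With that 1 read set to the floor of 3, the density was 0.261 of that in TGF-b instead of 0.13, which is less of a fall than at Psmd9 (0.22) or Psma4 (0.25). Psmd9 had 24 and 3 reads (-2.19, -4.18 to -0.90). Psmd5 had 14 and 4 reads, and its interval included 0 (-2.88 to 0.18). Psma4 of the alpha ring had 21 and 3 reads (-2.0, -4.0 to -0.70), and the deubiquitinase gene Psmd14 had 18 and 3 (-1.79, -3.80 to -0.46). Psmc5, with 27 and 5 reads (-1.76, -3.30 to -0.64), and Psmb6, with 17 and 3 (-1.71, -3.72 to -0.37), were lower too. Psmb2 had 23 and 6 reads (-1.31, -2.73 to -0.22) and Psma2 28 and 9 (-1.07, -2.23 to -0.11). Psma8 went from 9 reads to 0, at a region adjoining the one measured with TGF-b over NC.

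The rises in the siRNA library were at regions called only there, as were 4850 of the 5275 rises over all genes. Psmd6, a cap subunit, had 0 reads in TGF-b and 13 in the siRNA library, 8 bases before its start, which is at least 4.76-fold higher against the floor of 3 reads. Psma7 had 0 and 12 reads (at least 4.42-fold) and Psma3 0 and 11 (at least 4.08-fold), the latter 2028 bases after the TSS of another transcript than the one at its S set region (chr12:71035653-71035735 and chr12:71021363-71021446, GRCm39). The core assembly chaperone gene Psmg3 had 4 and 20 reads and a log2 ratio of 2.53 (1.30 to 4.26). The activator gene Psme1 had 10 and 28 reads (1.87, 0.93 to 2.97), whereas its partner Psme2 had 61 and 43 (-0.01, -0.58 to 0.54). The remaining 2 higher members, Psmd1 and Psmf1, had at most 5 reads in either library. Both Psmd1 and Psmd6 were measured here at another region than in the first table.

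For 26 members, the same promoter region stood in both tables of the T set, so that 1 region could be followed through 3 libraries. Such regions were mostly called in the TGF-b library, in 24 of the 26 members and in 92.7% of 10277 genes followed in the same way, which favours high values there. Median reads of the 26 members were 18 in NC, 23.5 in TGF-b and 12 in the siRNA library. Over the 10277 genes they were 15, 20 and 10. For TGF-b over NC, 6 members were higher and 1 lower (23.1% and 3.85%), against 36.8% and 5.8% of all genes followed, with median log2 ratios of 0.49 and 0.62. For the siRNA library over TGF-b, 0 members were higher and 10 lower (0% and 38.5%), against 7.96% and 37.6%, with medians of -0.64 and -0.58. Both comparisons share the TGF-b library, so that a high count there raises the former ratio and lowers the latter.

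Reads in NC, TGF-b and the siRNA library, in this order, were 3, 28 and 9 at Psma2. Psmc6 had 10, 27 and 13 reads. Psmb6 had 7, 17 and 3 reads. In each of these genes the TGF-b library was the highest. Psmc5 had 13, 27 and 5 reads, and Psmd9 had 13, 24 and 3. Psmd8 had 25, 47 and 21 reads. A similar count was kept in the siRNA library at Psmb10, with 8, 19 and 21 reads, and at Psma6, with 4, 16 and 14. Genes of other roles did so too, as Psmd12 with 28, 15 and 15. The other alpha ring genes followed had fewer reads there than in TGF-b, as Psma4 with 24, 21 and 3. Psma6 was followed at the region 24 bases before its downstream start, where TGF-b over NC gave a log2 ratio of 1.89 (0.61 to 3.64). The region at its upstream start had 13 and 9 reads and was the denser of the pair in the first table. Other members had their highest read count in NC, but the interval of TGF-b over NC included 0 for each of those named next. Psmd3, whose product is a core part of the cap lid, had 70, 52 and 26 reads, Psmb3 had 50, 37 and 14 (TGF-b over NC -1.06 to 0.16), and Psmd4 had 44, 29 and 20. Psmd11, a lid subunit, had 36, 24 and 13 reads (-1.31 to 0.17). Psme3ip1, no subunit, had 47, 46 and 22 (-0.64 to 0.53).

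**Figure D3:**
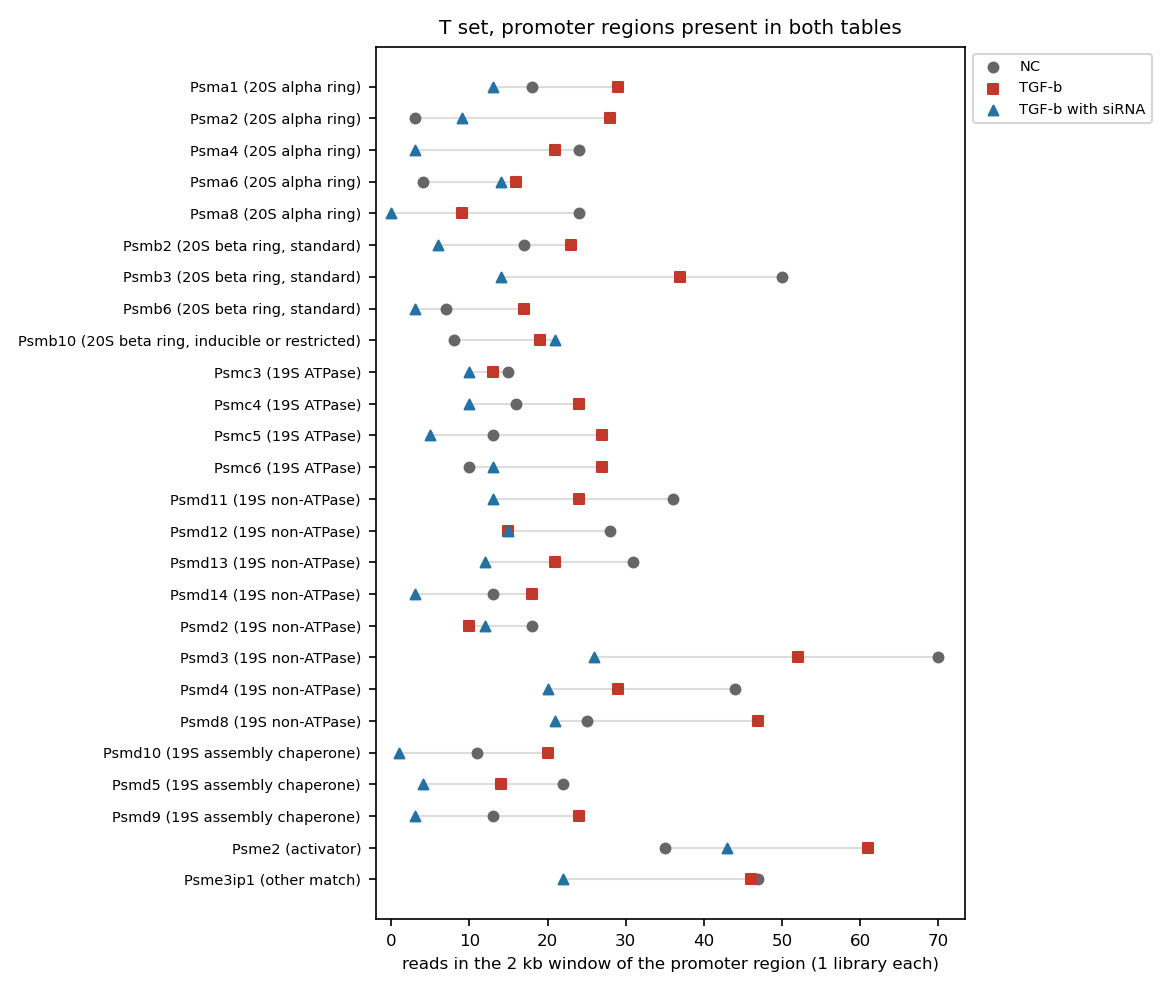
Reads at promoter regions of the T set that stood in both tables. Each row is 1 gene with its role, and the x axis is the number of recovered reads in the 2 kb window; circles are NC, squares TGF-b and triangles the siRNA library, 1 library each. Psma2 runs from 3 reads in NC to 28 in TGF-b, Psmd3 is highest in NC with 70, and Psme2 is highest in TGF-b with 61.

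In the S set, TGF-b against NC gave 2 of 15 members higher and 3 lower, 13.3% and 20%. Over 6762 genes, 22.2% were higher and 15.9% lower. The median log2 ratio was 0.17 in members and 0.20 over all genes, and the interval lay above 0 for 2 members (13.3%) and below 0 for 3 (20%), against 18.9% and 11.5% of all genes. Without the rescaling line of the authors, 7 members were higher and 3 lower, against 42.7% and 6.92% of all genes, with a median of 0.72 in members and 0.77 over all genes. No alpha ring gene had a promoter region in this table. The ATPase gene Psmc4 had 8 reads in NC and 36 in TGF-b, 97 bases before its start (chr7:27749506-27749741, GRCm39), with a log2 ratio of 1.48 (0.54 to 2.69). Psmc1, also an ATPase gene, had 0 and 8 reads at an intronic region, at least 1.46-fold higher against the floor of 3 reads. Psmg2 had 6 and 17 reads (0.79, -0.37 to 2.23), Psmg1 4 and 11 (0.68, -0.70 to 2.44) and Psmd9 6 and 15 (0.62, -0.57 to 2.07), and all 3 intervals included 0.

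The 3 lower members of that comparison were measured at regions called only in NC, as were 1040 of the 1073 lower genes over all. Psmf1, which encodes a proteasome inhibitor, had 10 and 2 reads (-2.47, -4.94 to -0.90). Its region was annotated as 3' UTR, 326 bases after the TSS of another transcript than that of its region in the siRNA comparison. Psmd5 had 10 and 3 reads at an intronic region, 2696 bases before the TSS of another transcript than that of its T set region (-2.05, -4.08 to -0.58), and Psmd11 had 5 and 0. Psmb3 had 12 and 10 reads (-0.81, -2.01 to 0.34) and Psmd8 13 and 17 (-0.20, -1.19 to 0.85). The ratio of Psmd8 was below 0 although its reads were higher in TGF-b, because the normalization line of this table lowers TGF-b against NC.

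The siRNA library against TGF-b in the S set had 4 of 19 members higher and 3 lower, 21.1% and 15.8%, against 13.6% and 15.1% of 8145 genes, with median log2 ratios of -0.11 and 0.05. The counting interval lay above 0 for 3 members (15.8%) and below 0 for 2 (10.5%), against 12.3% and 14.3% of all genes. Psmb1, a standard beta ring gene, had 6 and 16 reads 49 bases before its start (1.38, 0.20 to 2.82). Psmd8 had 17 and 36 reads (1.08, 0.31 to 1.95), and its region was called in both libraries. Psmf1 had 7 and 14 reads (1.0, -0.17 to 2.37), at another region than in the NC table, and Psmd12 11 and 15 (0.50, -0.56 to 1.63). Psmc2, the remaining higher member, had 0 and 4 reads. The lower members were Psmg2 with 17 and 5 reads (-1.48, -3.05 to -0.28), Psmd9 with 15 and 5 (-1.31, -2.88 to -0.08) and Psmc1 with 8 and 3 (-1.04, -3.08 to 0.52). Psmg1 had 11 and 5 reads (-0.89, -2.49 to 0.44), and Psmb2 had 15 and 9 (-0.59, -1.81 to 0.51).

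The same region could be followed through the 3 libraries of the S set for 11 members, all called in TGF-b. Of 4611 genes followed in the same way, 92.8% were called in TGF-b, which favours high values there. Median reads of the 11 members were 8 in NC, 17 in TGF-b and 13 in the siRNA library, against 8, 19 and 13 over the 4611 genes. For TGF-b over NC, 2 members were higher and 0 lower (18.2% and 0%), against 33.9% and 2.19%. In the siRNA library over TGF-b, 1 was higher and 3 lower (9.09% and 27.3%), against 2.93% and 28.4%. Reads in NC, TGF-b and the siRNA library were 8, 36 and 31 at Psmc4, and 15, 34 and 28 at Psmb9. Psmd3 had 16, 27 and 35 reads, Psmd13 8, 19 and 24, and Psmd8 13, 17 and 36. These cap genes had their highest read count in the siRNA library, but only at Psmd8 did the interval of the siRNA library over TGF-b lie above 0 (0.31 to 1.95). It was -0.31 to 1.12 at Psmd3 and -0.46 to 1.25 at Psmd13. Psmd9 had 6, 15 and 5 reads and Psmg2 6, 17 and 5, with TGF-b the highest.

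**Figure D4:**
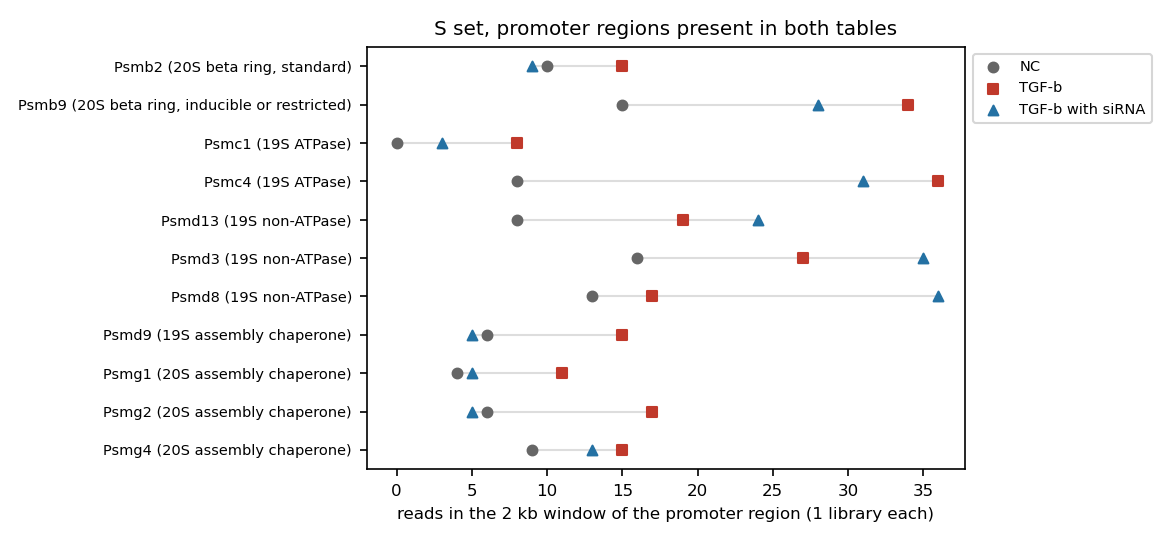
Reads at promoter regions of the S set that stood in both tables. Each row is 1 gene with its role, and the x axis is the number of recovered reads in the 2 kb window; circles are NC, squares TGF-b and triangles the siRNA library, 1 library each. NC is the lowest library at Psmc4 (8 reads), Psmd3 (16) and Psmd13 (8), and Psmd8 is highest in the siRNA library (36).

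Across the sets, 20 members had a promoter region in both. Over all genes, 8180 had one in both, out of 20529 with one in the T tables and 9895 with one in the S tables. A promoter region in all 4 tables was present for 8 members, namely Psmb2, Psmb3, Psmc4, Psmd3, Psmd8, Psmd9, Psmd13 and Psmg1. That count was not made over all genes, and neither count of members was tested. The regions of the T and S sets overlapped by at least 1 bp at 12 members, which is 26.7% of the 45 members with a promoter region in the T set and 57.1% of the 21 in the S set. Over all genes these shares were 21.6% and 44.7%. The 12 were Psmb2, Psmb3, Psmb9, Psmc4, Psmd3, Psmd8, Psmd9, Psmd12, Psmd13, Psme2, Psme3ip1 and Psmg4. Psmd3 was among the 4 densest members in each of the 4 tables. At Psmd8, the siRNA library had fewer reads than TGF-b in the T set (21 and 47; log2 ratio -0.65, -1.42 to 0.05) and more in the S set (36 and 17; 1.08, 0.31 to 1.95). No test of this contrast between sets was possible. At Psmd9 it had fewer in both sets, with 3 and 24 and with 5 and 15. Each table was normalized on its own, so that the ratios above stay within a table. The 4 members named as densest in a set were ranked by their mean over its tables, an order that the separate normalization can affect.

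Some of these regions cannot be assigned to 1 gene. In the reference, 8 of 43 members (18.6%) had a divergent neighbour whose start lay within 1 kb, against 8.48% of 17492 genes. The pairs were Psma2 and Mrpl32 with 205 bases between the starts, Psma7 and Ss18l1 (19), Psmb9 and Tap1 (226), Psmc5 and Ftsj3 (101), Psmd10 and Atg4a (196), Psmd13 and Sirt3 (85), Psme2 and Rnf31 (641), and Psme3ip1 and Rspry1 (215). Tap1 encodes a subunit of the peptide transporter of antigen presentation. Since reads were counted over 2 kb, the values at these 8 members cover both starts.

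Other genes of the pathway were described from a list of 32, which holds ubiquitin-activating enzymes, shuttle factors, cap-associated enzymes, the core maturation factor Pomp and regulators of proteasome genes. In the T set, each of the 2 tables had a promoter region for 24 of them, though not for the same 24 genes. With TGF-b over NC 7 were higher and 2 lower, 29.2% and 8.33%, with a median log2 ratio of 0.53, against the 20.6% and 25.1% of all genes given above. Pomp had 14 and 38 reads (1.42, 0.61 to 2.35). Uchl5, a deubiquitinase of the cap, had 8 and 31 (1.90, 0.93 to 3.12), and the shuttle factor gene Rad23b had 22 and 61 (1.43, 0.77 to 2.16). Usp14, another deubiquitinase of the cap, had 31 and 7 at a region 850 bases after a TSS (-1.93, -3.22 to -0.92). In the siRNA library over TGF-b, 2 were higher and 4 lower (8.33% and 16.7%), with a median of -0.25, against 31.5% and 20.4% of all genes and their median of 0.20. Rad23b was among the lower ones with 61 and 19 reads (-1.15, -1.94 to -0.47), while Pomp had 38 and 40 (0.55, -0.08 to 1.19). The Pomp region here lay 541 bases after a TSS and was not the one measured with TGF-b over NC, 75 bases after a TSS.

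The list had 9 and 10 genes with a promoter region in the tables of the S set. TGF-b over NC gave 2 higher and 0 lower (22.2% and 0%), with a median of 0.60, against 22.2% and 15.9% of all genes and a median of 0.20. The siRNA library over TGF-b gave 1 higher and 2 lower (10% and 20%), with a median of -0.11, against 13.6% and 15.1% and a median of 0.05. Rad23b had 11 and 63 reads with TGF-b over NC (1.88, 1.07 to 2.89), and 63 and 20 in the siRNA comparison (-1.58, -2.35 to -0.91). Nfe2l1, the activator named above, had 33 and 16 reads with TGF-b over NC in the T set (-0.96, -1.86 to -0.16), at a region 1013 bases after a TSS. At another region, 81 bases before a TSS, it had 58 reads in TGF-b and 37 in the siRNA library (-0.15, -0.76 to 0.42).

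Counting every region assigned to a member, and not the densest promoter region alone, gave the following counts. In the T set, 13 of 96 member regions were higher and 36 lower with TGF-b over NC, 13.5% and 37.5%, against 17.3% and 42.1% of 170890 regions. In the siRNA library over TGF-b, 39 of 102 were higher and 16 lower, 38.2% and 15.7%, against 49.7% and 16.2% of 180118. The S set had 3 of 24 higher and 6 lower (12.5% and 25%), against 17.4% and 26.7% of 52723, and then 6 of 27 higher and 4 lower (22.2% and 14.8%), against 15.1% and 27.8% of 52579. Regions of 1 gene share their library and overlapping windows share reads, so that they are not replicates.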

How the data were processed

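Chromatin association was measured by CUT&Tag in 6 libraries, 1 per group. The study's methods give mapping to GRCm39 with Bowtie2 and peak calling with a tool written as Masc2, whereas the submitters' processing notes name BWA 0.7.12 and mm10. Transcript spans in the tables equalled those of the GRCm38 annotation for only 1.93% of 21769 genes, while lengths were equal for 95.9%, so that the coordinates are taken as GRCm39. The deposited values are a signal, normalized read density, which the authors formed as reads plus 1 per kb and rescaled along a straight line per table. The deposited ratio and p-value columns, which hold the authors' own comparisons, were not used. The DNA spike-in of the protocol was not used here.

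From the densities, reads of a 2 kb window were recovered as whole numbers within 0.1 read in 99.96% to 99.99% of regions, and recovery was tested on simulated data. The depth of a library as a whole was not used here, and densities are not scaled to it. For each gene, the region with the highest mean density within 3 kb of a TSS, by the distances in the tables, was taken, and its log2 ratio is the later library over the earlier one. In place of a test, counts past 2-fold and medians are set beside those of all genes. Members named with values are, per comparison, the 4 largest rises and the 4 largest falls with at least 10 reads in the higher library and, per set, the 4 densest, and others are named to account for a count or a role. The members, lists and rules were chosen with earlier results of these data known. Alternatives were thresholds of 1.5-fold and 4-fold, centring, a distance of 1 kb, other choices of region, no rescaling line, 0.1 reads added, floors on reads and leaving out non-subunits. Promoter sequences come from RefSeq (GRCm38.p6). Python 3.11.15, pandas 2.3.3, NumPy 2.4.6, SciPy 1.17.1 and matplotlib 3.10.9 were used.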

Additional observations from a re-analysis of the deposited data

How the results depend on the processing

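Of 149 alternative values of the counts and medians, 117 stayed within the limits set, 29 moved and 3 medians changed sign. The limit was 1.5 times for a count and, for a median, the 95% rank interval over members, which is wide (-0.63 to 0.47 for siRNA over TGF-b in the T set). That median went from -0.06 to -0.51 without the rescaling line and to -0.43 with at least 10 reads, and over all genes from 0.20 to -0.26 and -0.06. Percentages in brackets are shares of all genes, or of all regions, at the same setting. The median of TGF-b over NC in the T set became 0.47 in 29 members within 1 kb of the TSS (0.15 over all genes), with 3 members lower (19%). The S set median of TGF-b over NC became -0.03 when centred on all genes and 0.72 without the rescaling line (0.77 over all genes), where 7 members were higher (42.7%). The siRNA median of the S set became 0.13 without Psmc3ip, Psme3ip1 and Psme2b, 1 of which (Psme3ip1) had a promoter region there.

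With a threshold of 1.5-fold, TGF-b over NC in the T set had 13 of 36 members higher (30.8%), 11 lower (34.2%) and 21 of 96 regions higher (22.5%). The siRNA comparison of the T set had 13 of 41 members higher (40.6%). In the S set there were 6 of 15 members (35.8%) and 7 of 24 regions (27%) higher with TGF-b, and 5 of 19 members (25.2%) and 8 of 27 regions (38.7%) lower in the siRNA library. With 4-fold, TGF-b over NC in the T set had 1 member higher (7.93%) and 3 lower (11.1%), with 6 regions higher (10.3%) and 21 lower (21.4%). The siRNA comparison of the T set had 4 members higher (15.8%), 4 lower (9.04%) and 9 of 102 regions lower (9.59%). In the S set there was 1 member (4.79%) and 1 region (4.69%) higher with TGF-b. In its siRNA library there was 1 member (2.63%) and 1 region (3.79%) higher, with 0 members (3.54%) and 1 region (9.19%) lower. Centring on all regions gave 24 regions higher with TGF-b (26.7%) and 36 lower with siRNA (28.9%) in the T set. In the S set, 1 member was higher with TGF-b within 1 kb (23.9%), with a floor of 3 on the reads (19%) and with at least 10 reads in either library (24.7%).

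Thresholds and the read floor move a count by their construction, and the cause of the other shifts was not tested. Requiring an overlap of 50% of the shorter region left 12 members shared between the sets, 26.7% and 57.1% of those in the T and S sets. Over all genes these shares were 19.6% and 40.7%, instead of 21.6% and 44.7% at 1 bp. Counts of members higher with TGF-b and lower with siRNA were not run, because both ratios share the TGF-b library. No paired analysis was possible because each group has 1 library and the labels carry no replicate numbers. For the same reason no library could be left out. With medians of 5 to 10 reads over all regions, a 2-fold difference can stay within counting error. An example is Psmf1 in the siRNA comparison of the S set, with 7 and 14 reads (-0.17 to 2.37). How often this happens was not measured.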

Other observations

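Psma5 and Psmb7 had no promoter region but several regions farther away. In the T set, Psmb7, which encodes a catalytic beta subunit, had 7 regions in the first table, with 0 to 18 reads per library, and 8 in the second, with 0 to 11 reads. At 3 and 4 of them a library had 3 or fewer reads. The Psmb7 region 8382 bases inside the gene had 11 reads in the TGF-b library and 0 in either other library. Psma5 of the alpha ring had 3 and 4 regions, with at most 10 reads in a library and 3 or fewer in at least 1 library at each. Over all members, regions beyond 3 kb had medians of 9 reads in NC and 4 in TGF-b in the first T set table, against 13 and 14.5 within 3 kb. A library had 3 or fewer reads in 61.4% of these distal regions, against 19.2% of those within 3 kb. Over all regions of that table these shares were 53.2% and 30.1%, and the medians were 8 and 5 reads beyond 3 kb and 13 and 10 within.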
